A study of Homo sapiens with 90 samples.

Results

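The collagen genes are those whose symbol follows the pattern COL, a type number, A and a chain number, and 43 of them had at least 1 probe set that the platform annotation gives to that symbol alone. They hold 111 of the 54715 probe sets on the array and are 43 of the 19774 genes with such a probe set. A gene is described here by its brightest probe set, the one with the highest mean over all 90 data columns, unless another is named. The cells were HepaRG, a human liver progenitor-derived line whose differentiated cultures hold hepatocyte-like and biliary-like cells, and they were plated on wells coated with type 1 collagen protein, which carries no RNA to the array. Cultures received 1 of 3 pesticides or 0.2% DMSO, the vehicle, for 24 hours. Fenbuconazole is a fungicide with a triazole ring, imazalil one with an imidazole ring, and 2,4-D is a herbicide of the chlorophenoxy class. Each pesticide was given at 9 concentrations that rose in steps of about 3-fold from 0.001 to 10 µM (0.001, 0.003, 0.01 and 0.03 µM are called low concentrations here, and 0.1, 0.3, 1 and 3 µM lie between them and 10 µM). Each of these groups held 3 arrays, which carry the codes P1, P2 and P3 in the sample labels and come from independent batches of cells by the study's supplement. The same 3 DMSO arrays serve all 3 chemicals, so the comparisons with DMSO are not independent of each other. All values are log2 expression after RMA, the robust multi-array average.

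Collagens are proteins of 3 chains wound into a helix, made as procollagens in the endoplasmic reticulum, where prolines and lysines are hydroxylated, then exported, trimmed and cross-linked outside the cell. Fibrillar collagens such as types I, III and V form the tensile fibres of tissue. The type IV chains form the net of basement membranes, type VI forms beaded filaments, fibril-associated collagens such as types XII and XXI sit on the fibres, and type XVIII is a heparan sulfate proteoglycan of basement membranes. In liver, fibrillar collagen is made mainly by stellate cells and portal fibroblasts and accumulates in fibrosis, while hepatocytes are a known source of type XVIII.

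Of the 43 genes, 15 were above background in DMSO and 28 were not. Background was set in each DMSO array as the 95th percentile of 166 probe sets for olfactory receptors, taste receptors and hair keratin-associated proteins, which liver cells are not known to use. This gave thresholds of 3.16, 3.20 and 3.14 in P1, P2 and P3, and a gene had to exceed it in all 3 arrays. The 15 included 4 of the 6 type IV chains (COL4A1, COL4A2, COL4A5 and COL4A6), 4 of the 11 fibrillar genes (COL1A1, COL3A1, COL5A1 and COL27A1) and 2 of the 10 fibril-associated genes (COL12A1 and COL21A1). COL8A1 of the short-chain network, COL7A1 of the anchoring fibrils of skin, COL6A1, COL18A1 and COL28A1 made up the rest, and 0 of the 3 transmembrane collagens were among them. The count was 14 in the imazalil set, where COL28A1 lay below the threshold, and 16 in the 2,4-D set, where the fibrillar gene COL11A1 lay above it. COL28A1 was close to it in the fenbuconazole set too, at 3.29, 3.25 and 3.37. The 15 genes of the fenbuconazole set are used throughout. Brightness differs between probe sets for technical reasons, so the values place each gene against background and do not rank the genes.

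**Figure D1:**
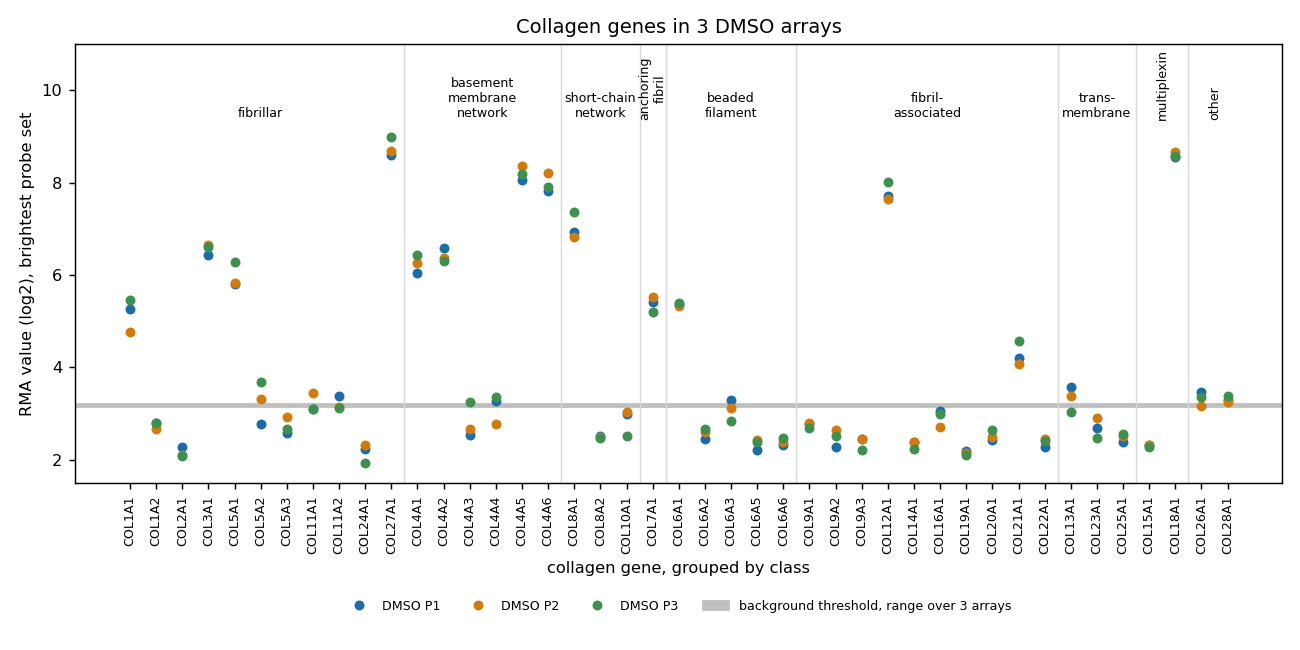
RMA values (log2, vertical axis) of the brightest probe set of 43 collagen genes (horizontal axis, grouped by class) in the 3 DMSO arrays, shown as points coloured by P code, in the fenbuconazole set. The grey band spans the 3 background thresholds, from 3.14 to 3.20, and 15 genes have all 3 points above it.

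Among the type IV chains, COL4A5 read 8.05, 8.35 and 8.19 in DMSO P1, P2 and P3, and COL4A6 read 7.82, 8.20 and 7.90. COL4A1 read 6.04, 6.26 and 6.43, and COL4A2 read 6.59, 6.37 and 6.30. COL4A3, by contrast, read 2.55, 2.67 and 3.24, and COL4A4 read 3.26, 2.77 and 3.35. The α1 and α2 pair, which makes up the common form of the type IV net, and the α5 and α6 pair were thus above background in every DMSO array. The probe set used for COL4A3 exceeded the threshold in P3 alone, and that of COL4A4 in P1 and P3. Another COL4A3 probe set read 3.28, 3.28 and 2.48, above the threshold in P1 and P2, so none of the COL4A3 probe sets passed in all 3 arrays.

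The type IV genes lie in 3 head-to-head pairs that share a stretch of upstream DNA, which is why those stretches are shown. Promoter entries of RefSeq (assembly GRCh38.p14) existed for 31 of the 43 genes. The annotated starts of COL4A1 and COL4A2 are 127 bases apart, those of COL4A3 and COL4A4 419 bases apart, and those of COL4A5 and COL4A6 380 or 1416 bases apart for the pair of COL4A6 starts. The COL4A1 and COL4A2 sequence is all that lies between the starts (chr13:110307158-110307283, plus strand, length 126 bases), and the others are the 250 bases before the start of COL4A5 (chrX:108439588-108439837, plus strand) and of COL4A3 (chr2:227164374-227164623, plus strand). Capitals mark CCAAT, the GC box GGGCGG and the TATA box TATAAA, searched on both strands.
COL4A1 and COL4A2: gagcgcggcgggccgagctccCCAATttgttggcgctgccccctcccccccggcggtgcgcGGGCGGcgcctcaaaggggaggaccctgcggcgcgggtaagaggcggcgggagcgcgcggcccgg
COL4A5: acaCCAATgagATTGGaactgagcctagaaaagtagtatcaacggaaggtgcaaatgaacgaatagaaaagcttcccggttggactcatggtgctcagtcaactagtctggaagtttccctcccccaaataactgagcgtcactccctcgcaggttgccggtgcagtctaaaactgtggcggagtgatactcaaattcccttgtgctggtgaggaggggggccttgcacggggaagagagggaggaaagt
COL4A3: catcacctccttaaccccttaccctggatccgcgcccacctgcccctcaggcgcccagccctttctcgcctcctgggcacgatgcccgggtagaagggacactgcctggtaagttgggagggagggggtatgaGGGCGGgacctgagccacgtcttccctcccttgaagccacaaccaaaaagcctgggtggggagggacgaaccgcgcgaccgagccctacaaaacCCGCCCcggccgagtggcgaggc

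The COL4A1 and COL4A2 stretch held 1 CCAAT and 1 GGGCGG, the COL4A5 stretch 2 CCAAT and 0 GGGCGG, and the COL4A3 stretch 0 CCAAT and 2 GGGCGG. None of the 3 sequences held TATAAA. Over 35116 promoters of the same table, 32.01% held CCAAT, 42.6% GGGCGG and 10.7% TATAAA in 250 bases, and 21.1%, 34.6% and 5.87% did so in the last 126 bases. These matches are a description of the letters and were not set against the expression values.

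Chains that assemble together did not all read above background. COL1A1, the α1 chain of type I collagen, read 5.25, 4.78 and 5.45 in the DMSO arrays, and its partner COL1A2 read 2.79, 2.66 and 2.81. COL5A1 read 5.80, 5.83 and 6.29, and its partner COL5A2 read 2.78, 3.31 and 3.69, above the threshold in P2 and P3 only. COL6A1 read 5.36, 5.32 and 5.39, COL6A2 2.45, 2.61 and 2.67, and COL6A3 3.29, 3.12 and 2.83. Each of these partners therefore failed the threshold in at least 1 DMSO array, which says how its probe set read and does not show that the transcript was absent.

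The choice of probe set mattered for this count. Of the 111 probe sets, 30 were above background, and of the 14 genes above background with more than 1 probe set, 5 had all of them above (COL4A1, COL4A2, COL5A1, COL7A1 and COL18A1). COL6A1 had 1 of 8 above, COL3A1 2 of 5, COL1A1, COL12A1 and COL27A1 each 3 of 5, and COL4A5 1 of 2. COL21A1 rests on a single probe set, which read 4.19, 4.08 and 4.57.

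The chemicals left most collagen genes without a called difference. Across the 27 comparisons of a concentration with DMSO, 1 collagen gene passed the test, and it did so once: COL3A1 fell at 10 µM imazalil. Over all probe sets, 0.0418% of the tests in these 27 comparisons were called (limma, Benjamini-Hochberg adjusted p under 0.05 over 54715 probe sets). At 10 µM the number of collagen genes called was 0 for fenbuconazole, 1 for imazalil and 0 for 2,4-D, against 0.468%, 0.579% and 0.00548% of all probe sets. At an unadjusted p under 0.05 the numbers at 10 µM were 4, 4 and 6 of 43, against 7.41%, 9.44% and 6.45% of all probe sets. The moderated F over the 9 concentrations called 0, 1 (COL3A1, adjusted p = 0.000177) and 0, against 0.329%, 0.351% and 0.0439% of all probe sets, with 6, 5 and 5 genes at an unadjusted p under 0.05 against 5.59%, 8.20% and 9.14%.

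**Figure D2:**
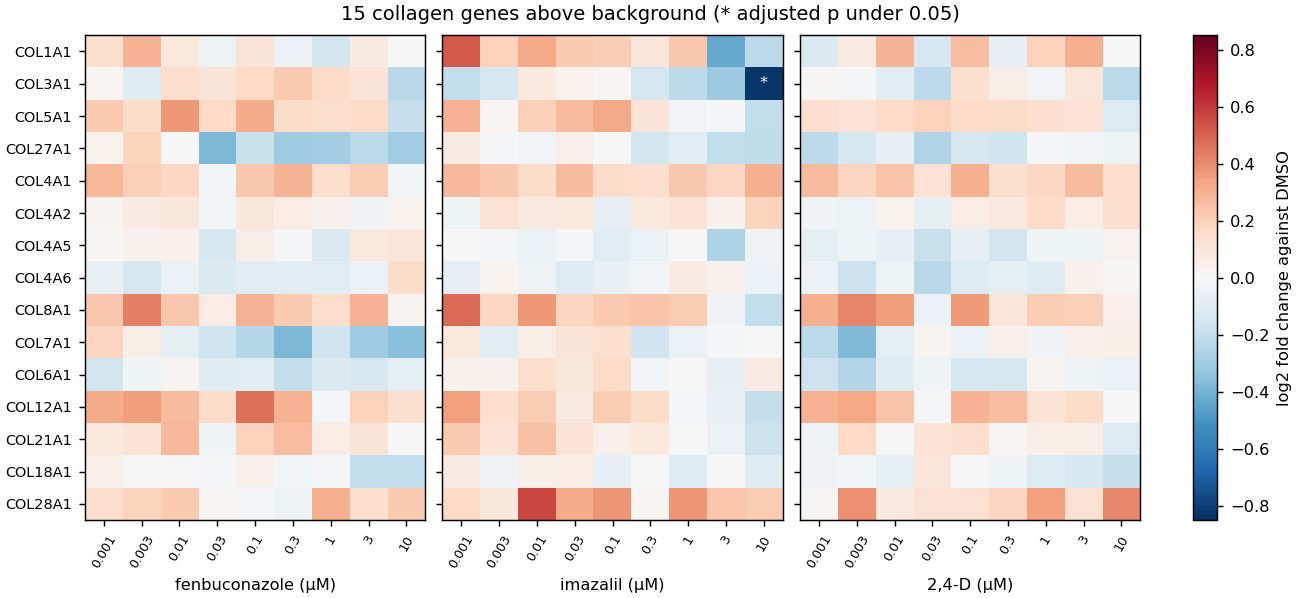
Log2 fold change against DMSO (colour, limma with P code as block) of the 15 collagen genes above background (rows) at 9 concentrations in µM (columns) of each chemical. The star marks the only adjusted p under 0.05, COL3A1 at 10 µM imazalil with a log2 fold change of -0.82.

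The median log2 fold change of the 43 genes at 10 µM was -0.04 for fenbuconazole, -0.06 for imazalil and 0.00 for 2,4-D, and over all probe sets the medians were -0.00, 0.00 and -0.00. For the 15 genes above background, the standard error of a log2 fold change at 10 µM was 0.08 to 0.20 with fenbuconazole, 0.09 to 0.28 with imazalil and 0.08 to 0.18 with 2,4-D. A small change in these genes was therefore not detectable with 3 arrays a group.

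COL3A1 encodes the chain of type III collagen, a fibrillar collagen laid down beside type I. Its DMSO arrays in the imazalil set read 6.39, 6.63 and 6.51 in P1, P2 and P3, and its 10 µM arrays read 5.54, 5.83 and 5.68. The 10 µM arrays all lay below all the DMSO arrays, and below every one of the 12 arrays at 0.001 to 0.03 µM, which ran from 6.17 to 6.66 with a median of 6.47. The log2 fold change was -0.82 ± 0.10 (SE, n = 3 arrays a group, limma adjusted p = 2.43e-05), and the differences within P1, P2 and P3 were -0.84, -0.79 and -0.84. At 3 µM the arrays read 5.98, 6.49 and 6.13 (-0.31 ± 0.10 (SE), adjusted p = 0.616) and at 1 µM 6.08, 6.41 and 6.38 (-0.22 ± 0.10 (SE), adjusted p = 0.689). These means of 6.20 and 6.29 lay between those of DMSO, 6.51, and of 10 µM, 5.68, but the 3 µM and 1 µM arrays overlapped the DMSO arrays, and the lowest concentration, 0.001 µM, gave a value of about the 1 µM size (-0.21, adjusted p = 0.784).

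**Figure D3:**
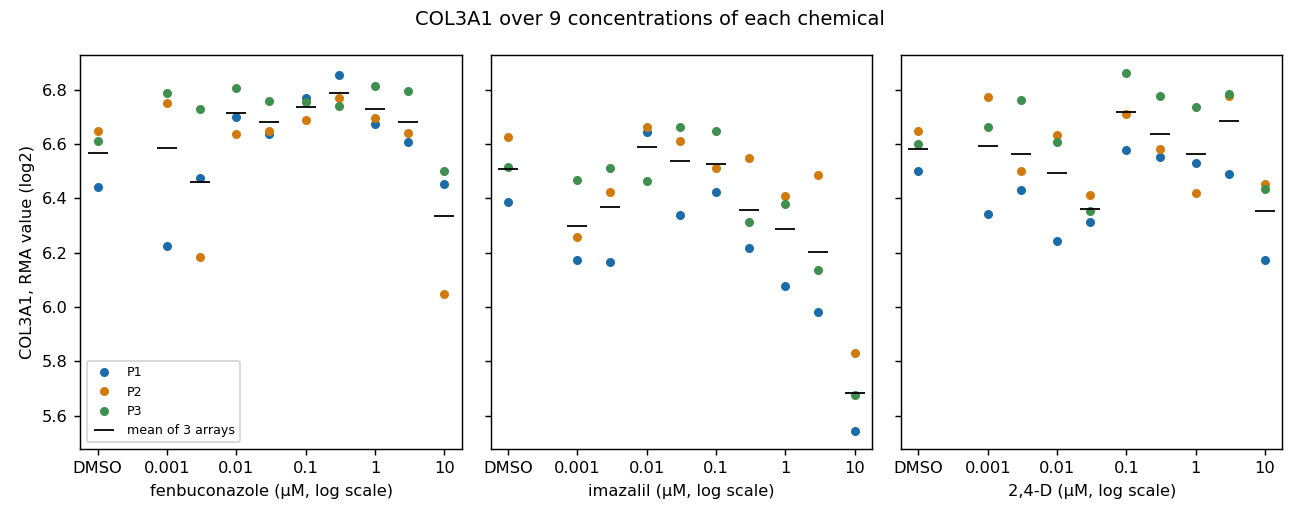
COL3A1 RMA values (log2, vertical axis) in DMSO and at 9 concentrations (µM, log scale) of fenbuconazole, imazalil and 2,4-D, with points coloured by P code and a bar at the mean of 3 arrays. With imazalil the 10 µM arrays lie from 5.54 to 5.83, below all other arrays of that set.

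COL3A1 is read by 5 probe sets, and they did not move by the same amount. The called one is the brightest. The other above background, whose identifier marks probes that may also match other sequences, read 5.38, 5.22 and 5.46 in DMSO and 5.04, 5.01 and 5.06 at 10 µM imazalil. Its groups did not overlap either, with a log2 fold change of -0.32 that did not pass the test (adjusted p = 0.348). The 3 probe sets at background had log2 fold changes of -0.14, -0.13 and 0.09. On the mean of all 5, with p adjusted over genes in place of probe sets, the log2 fold change was -0.27 (limma, adjusted p = 0.0494), the weakest of 9 alternatives, over which adjusted p ran from 3.88e-06 to 0.0494.

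The fall of COL3A1 differed between chemicals. At 10 µM, COL3A1 read 6.45, 6.05 and 6.50 with fenbuconazole, against 6.44, 6.65 and 6.61 in DMSO of that set, a log2 fold change of -0.23 (95% interval -0.49 to 0.02, adjusted p = 0.726). With 2,4-D it read 6.17, 6.45 and 6.44 against 6.50, 6.65 and 6.60, a log2 fold change of -0.23 (95% interval -0.42 to -0.04, adjusted p = 0.681). The 2,4-D arrays all lay below the DMSO arrays, and the fenbuconazole arrays overlapped them. The other COL3A1 probe set above background had log2 fold changes of 0.12 with fenbuconazole and -0.03 with 2,4-D (limma, adjusted p = 0.940 and 0.986). The differences between chemicals that follow are for the brightest probe set. Fenbuconazole minus imazalil was 0.59 ± 0.11 (SE, 95% interval 0.36 to 0.82, adjusted p = 0.00185), and imazalil minus 2,4-D was -0.60 ± 0.11 (SE, 95% interval -0.82 to -0.37, adjusted p = 0.00134). Fenbuconazole minus 2,4-D was -0.00, with an interval of -0.23 to 0.23. COL3A1 was the only collagen gene called in the first 2 of these 3 pairs, against 0.397% and 0.589% of all probe sets, and limma called 0 in the third, against 0.492%. At an unadjusted p under 0.05 the numbers were 10, 3 and 1 of 43 for these pairs, against 7.33%, 8.55% and 7.32% of all probe sets.

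Without P1, P2 or P3 in turn, the log2 fold change of COL3A1 at 10 µM imazalil stayed between -0.84 and -0.82, with adjusted p from 0.00632 to 0.0230. The difference from fenbuconazole was lost from the calls without P1 and without P3, and the difference from 2,4-D without P3.

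The DMSO arrays were not in the middle of the low concentrations for several collagen genes. The mean of the 12 arrays at 0.001 to 0.03 µM was above the DMSO mean for 12 of these 15 genes in the imazalil set, COL28A1 included, 10 in the fenbuconazole set and 7 in the 2,4-D set. The median of this difference over the 15 genes was 0.08, 0.04 and -0.01 in these sets. Over all probe sets the median difference of each low concentration from DMSO lay between -0.01 and 0.01. The share of all probe sets above DMSO is not given here, and the 3 sets share their DMSO arrays. Each chemical's 10 µM arrays were therefore also compared with those 12 arrays. This called 1 collagen gene for fenbuconazole (COL5A1), 3 for imazalil (COL3A1, COL5A1 and COL8A1) and 0 for 2,4-D, all lower at 10 µM, against 1.23%, 1.55% and 0.376% of all probe sets. At an unadjusted p under 0.05 the numbers were 6, 9 and 7 of 43, against 8.67%, 11.03% and 8.51% of all probe sets. Without 1 P code the imazalil count was 1 without P1, 1 without P2 and 2 without P3, COL3A1 among them each time, and the fenbuconazole count was 0 without P2 or P3. Other settings, tried after seeing the data, gave up to 4 genes for fenbuconazole, 5 for imazalil and 1 for 2,4-D.

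COL5A1, the α1 chain of type V collagen, which sits inside type I fibrils, read 5.97, 5.57 and 5.79 at 10 µM fenbuconazole and 5.98 to 6.43 (median 6.20) in the 12 low-concentration arrays. The 10 µM arrays were all below the low-concentration arrays (-0.43 ± 0.08 (SE), adjusted p = 0.00526). Against DMSO, at 5.80, 5.83 and 6.29, they overlapped, and the log2 fold change of -0.20 did not pass the test (adjusted p = 0.737). With imazalil the 10 µM arrays read 5.71, 5.80 and 5.71, against 5.88 to 6.42 (median 6.16) at low concentrations (-0.40 ± 0.09 (SE), adjusted p = 0.0121) and 5.71, 5.89 and 6.25 in DMSO (-0.21, adjusted p = 0.584). So with all arrays COL5A1 was lower at 10 µM than at low concentrations in both sets and was not separated from the vehicle. The difference from low concentrations did not pass the test without P2 or P3 with fenbuconazole (-0.35 and -0.39, adjusted p = 0.372 and 0.206), nor without P1, P2 or P3 with imazalil (-0.41, -0.42 and -0.38, adjusted p = 0.0850, 0.285 and 0.150). A second COL5A1 probe set was lower at 10 µM fenbuconazole than at low concentrations by -0.62 (adjusted p = 0.000699) and was the 1 collagen probe set with a called trend over fenbuconazole, -0.17 for each 10-fold in concentration (adjusted p = 0.000674). Its DMSO arrays read 4.72, 4.06 and 5.05 and its 10 µM arrays 4.64, 4.45 and 4.85, with no separation.

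A linear trend over the 9 concentrations, fitted to the 27 treated arrays without DMSO, called 0 collagen genes for fenbuconazole, 3 for imazalil and 0 for 2,4-D, against 0.0731%, 0.74% and 0.0548% of all probe sets. At an unadjusted p under 0.05 the numbers were 5, 11 and 5 of 43, against 7.86%, 12.3% and 6.47% of all probe sets. All 3 imazalil trends pointed down. COL8A1, a short-chain network collagen of vessel walls and of the membrane under the corneal endothelium, had a slope of -0.12 ± 0.03 (SE) for each 10-fold (adjusted p = 0.0190). The fibril-associated genes COL12A1 and COL21A1 had slopes of -0.11 ± 0.02 (adjusted p = 0.0261) and -0.09 ± 0.02 (adjusted p = 0.0255).

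COL8A1 read 6.73, 6.59 and 7.15 at 10 µM imazalil, 6.88, 7.15 and 6.99 at 3 µM, and 7.10 to 7.66 (median 7.27) in the 12 low-concentration arrays. The DMSO arrays, at 7.01, 6.73 and 7.36, overlapped the 10 µM arrays (-0.21, adjusted p = 0.685), while the difference of 10 µM from the low concentrations was -0.51 ± 0.11 (SE, adjusted p = 0.00917), a call lost without P1 (-0.48, adjusted p = 0.202) and without P2 (-0.40, adjusted p = 0.234). COL12A1 read 7.79, 7.37 and 7.65 at 10 µM, 7.76 to 8.37 (median 7.98) at low concentrations and 7.70, 7.62 and 8.09 in DMSO. COL21A1 read 3.82, 3.81 and 4.08 at 10 µM, 4.09 to 4.61 (median 4.26) at low concentrations and 4.03, 3.88 and 4.35 in DMSO. For all 3 genes the 10 µM arrays overlapped the DMSO arrays. For COL21A1 they lay below every low-concentration array, and for COL8A1 and COL12A1 1 of the 3 did not.

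**Figure D4:**
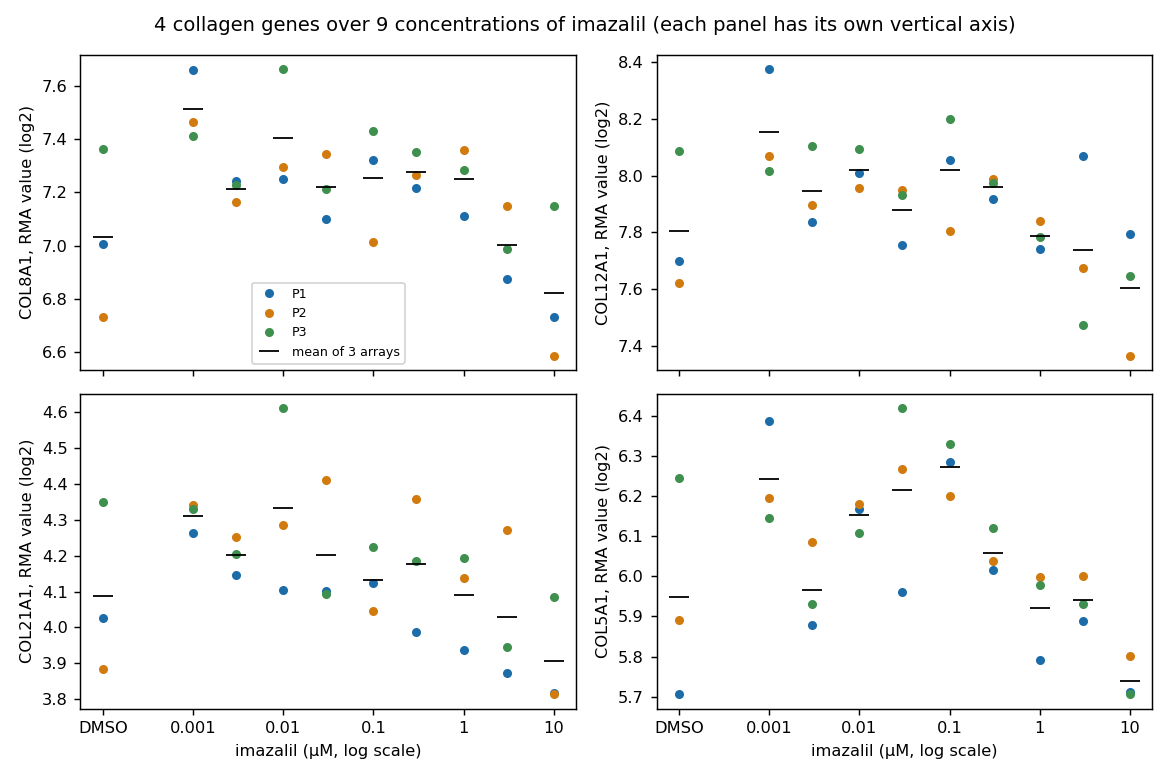
RMA values (log2, vertical axes that differ between panels) of COL8A1, COL12A1, COL21A1 and COL5A1 in DMSO and at 9 concentrations of imazalil (µM, log scale), with points coloured by P code and a bar at the mean of 3 arrays. The means are lowest at 10 µM, at 6.82, 7.60, 3.91 and 5.74, and the DMSO arrays overlap them.

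The 3 slopes kept their direction with fewer arrays and most then did not pass the test. Without the 10 µM arrays the slopes were -0.09 for COL8A1, -0.09 for COL12A1 and -0.07 for COL21A1, with adjusted p of 0.289, 0.283 and 0.278. Without P1, P2 or P3 the slopes ran from -0.14 to -0.10 for COL8A1, -0.13 to -0.09 for COL12A1 and -0.09 to -0.08 for COL21A1, and of these 9 values only COL12A1 without P1 passed the test (adjusted p = 0.0420). Of the other COL12A1 probe sets above background, 1 had a slope of -0.11 (adjusted p = 0.0542) and the other of -0.01 (adjusted p = 0.969). With fenbuconazole the slopes of COL8A1, COL12A1 and COL21A1 were -0.04, -0.05 and -0.02, and with 2,4-D -0.06, -0.05 and -0.02, none of them called, and the difference between slopes was not tested.

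For orientation on the sequence before a gene with a called trend and one with a called difference from low concentrations, the 250 bases before the RefSeq starts of COL12A1 (chr6:75206054-75206303, minus strand) and COL5A1 (chr9:134641553-134641802, plus strand) are shown on the strand of the gene, with the same motifs in capitals.
COL12A1: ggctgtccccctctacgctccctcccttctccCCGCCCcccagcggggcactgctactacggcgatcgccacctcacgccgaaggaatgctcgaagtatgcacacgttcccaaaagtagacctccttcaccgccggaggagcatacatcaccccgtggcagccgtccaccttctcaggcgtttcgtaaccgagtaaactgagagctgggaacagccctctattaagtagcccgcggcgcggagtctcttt
COL5A1: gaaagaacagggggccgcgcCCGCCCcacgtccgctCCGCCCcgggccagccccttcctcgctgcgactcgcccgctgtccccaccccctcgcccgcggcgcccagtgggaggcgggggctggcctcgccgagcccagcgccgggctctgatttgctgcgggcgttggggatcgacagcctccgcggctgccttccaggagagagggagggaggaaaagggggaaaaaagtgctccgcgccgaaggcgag
COL12A1 held 1 GGGCGG match and COL5A1 2, both on the opposite strand as CCGCCC, and neither held CCAAT or TATAAA.

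The remaining genes above background were not called against DMSO in any set. COL18A1, whose C-terminal fragment is endostatin, had the smallest unadjusted p at 10 µM fenbuconazole among the brightest probe sets of the collagens. It read 8.48, 8.23 and 8.46 there against 8.56, 8.66 and 8.58 in DMSO, and the groups did not overlap, but the log2 fold change of -0.21 did not pass the test (adjusted p = 0.517). Lack of overlap with 3 arrays a group is not a test, and COL19A1, at background, showed it there too. The share of all probe sets without overlap is not given here. With imazalil it was -0.10 and with 2,4-D -0.20 (adjusted p = 0.804 and 0.748). COL7A1, the anchoring fibril collagen, read 4.94, 4.88 and 5.25 at 10 µM fenbuconazole against 5.41, 5.51 and 5.20 in DMSO (-0.35, adjusted p = 0.618), and its trend over fenbuconazole, the smallest trend p there, was -0.12 (adjusted p = 0.0871). Its trend over 2,4-D had the opposite sign, 0.09 (adjusted p = 0.471). The other COL7A1 probe set, also above background, had a log2 fold change of -0.70 at 10 µM fenbuconazole (limma, adjusted p = 0.242). Its difference from low concentrations there was -0.65 (adjusted p = 0.0505) and its trend -0.16 (adjusted p = 0.107).

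COL27A1, a fibrillar collagen of cartilage, had log2 fold changes at 10 µM of -0.30, -0.21 and -0.04 with fenbuconazole, imazalil and 2,4-D. Those of COL1A1 were -0.00, -0.22 and -0.00, and those of COL6A1 -0.07, 0.07 and -0.06. The other COL1A1 probe sets above background had the opposite sign with imazalil, 0.11 and 0.16. COL28A1, close to background, read 3.84, 3.54 and 3.81 at 10 µM 2,4-D against 3.24, 3.30 and 3.43 in DMSO (0.41, adjusted p = 0.582), with no overlap. None of these values passed the test.

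The type IV genes above background likewise gave no called difference from DMSO. COL4A1 read 6.51, 6.33 and 6.51 at 10 µM imazalil against 5.98, 6.09 and 6.39 in DMSO, an overlap in 1 array (0.30, 95% interval 0.03 to 0.56, adjusted p = 0.449). The other COL4A1 probe set, also above background, had a log2 fold change of -0.05 there (limma, adjusted p = 0.953). COL4A2, the neighbour of COL4A1, had a log2 fold change of 0.19 (adjusted p = 0.580), and for COL4A5 and COL4A6 the values were -0.03 and -0.05. COL4A2 also had the smallest trend p over 2,4-D, 0.05 for each 10-fold (adjusted p = 0.394).

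Genes not above background gave no called difference either. Those with the smallest p at 10 µM were COL10A1 with 2,4-D (-0.42, adjusted p = 0.459), COL19A1 with fenbuconazole (0.26, adjusted p = 0.581) and COL1A2 with imazalil (0.34, adjusted p = 0.289). COL5A2, COL6A2, COL6A3, COL4A3 and COL9A1 had log2 fold changes between -0.20 and 0.24 over the 3 chemicals at 10 µM. Changes in these genes were not measurable where the probe set read at background.

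The P codes, taken as batches of cells, differed in a few collagen genes. Each code is 1 batch, so p here measures the spread between arrays and not between batches. Sample numbers in the labels also rise from P1 to P3, so batch and sample order cannot be told apart. Within each P code the numbers start with DMSO and then run in blocks by chemical. Inside a block they run from 10 µM down to the low concentrations. Differences between concentrations, between chemicals and from DMSO therefore cannot be told apart from sample order either. Over each set's 30 arrays, 0 collagen genes differed between P codes in the fenbuconazole set, 1 in the imazalil set (COL3A1, adjusted p = 0.0272) and 2 in the 2,4-D set (COL3A1, adjusted p = 0.00976, and COL4A5, adjusted p = 0.0163), against 2.86%, 3.13% and 4.82% of all probe sets. At an unadjusted p under 0.05 the numbers were 6, 10 and 13 of 43, against 15.5%, 14.8% and 17.2% of all probe sets. COL3A1 was lowest in P1 in the imazalil set, with a median of 6.17 over 9 treated arrays against 6.49 in P2 and 6.46 in P3. In the 2,4-D set the medians were 6.43, 6.58 and 6.74, and in the fenbuconazole set 6.63, 6.65 and 6.76. The fitted difference of P3 from P1 was 0.15, 0.18 and 0.24 for fenbuconazole, imazalil and 2,4-D.

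COL4A5 was lowest in P3 in all 3 sets, with P3 medians of 8.05, 8.03 and 8.07 against P1 medians of 8.31, 8.31 and 8.24. The adjusted p was 0.0735 for fenbuconazole and 0.0564 for imazalil. Next in order of p were COL5A1, COL4A2 and COL4A3 with fenbuconazole (adjusted p = 0.113, 0.206 and 0.286), COL8A1, COL4A6 and COL12A1 with 2,4-D (adjusted p = 0.0723, 0.0749 and 0.0859), and COL6A2, COL9A1 and COL6A3, all at background, with imazalil (adjusted p = 0.0652, 0.0782 and 0.135). The sets share their DMSO arrays, but the treated arrays shown by P code are separate arrays. Since each P code occurred once in every group, these differences were taken out of the comparisons by the block.

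**Figure D5:**
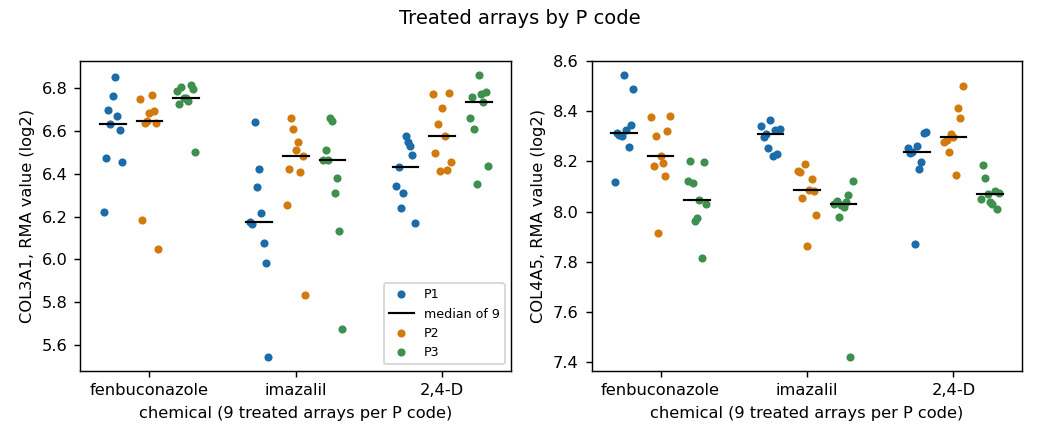
RMA values (log2, vertical axis) of COL3A1 and COL4A5 in the 9 treated arrays of each P code (colours) of the 3 chemicals (horizontal axis), with a bar at the median of 9. COL4A5 medians are lowest in P3, at 8.03 to 8.07, and COL3A1 medians are lowest in P1, at 6.17 to 6.63.

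The machinery that makes and handles collagen was read from lists of genes, in which limma made few calls at 10 µM. Of the genes for hydroxylation and folding, 14 of 16 were measured, 12 of them above background, and 0 were called at 10 µM with any chemical, with 1, 4 and 3 at an unadjusted p under 0.05 for fenbuconazole, imazalil and 2,4-D. For this and the lists that follow, the shares over all probe sets at 10 µM were 0.468%, 0.579% and 0.00548% called and 7.41%, 9.44% and 6.45% at an unadjusted p under 0.05. These include P4HB, a subunit of prolyl 4-hydroxylase, and PPIB, a prolyl isomerase, with log2 fold changes of -0.09 and -0.16 at 10 µM imazalil. The list medians were -0.01, -0.06 and -0.05 for fenbuconazole, imazalil and 2,4-D. Of 8 genes for export and trimming, 6 were above background and 0 were called at 10 µM, with 1, 2 and 2 at an unadjusted p under 0.05. PCOLCE2, an enhancer of procollagen C-proteinase, fell over the concentrations of 2,4-D, by 0.12 on the log2 scale for each 10-fold (adjusted p = 0.0343). This is a trend call, and the trend over 2,4-D called 0.0548% of all probe sets. Upward trends were called for 1 hepatocyte marker with fenbuconazole, 1 with imazalil and 1 biliary marker with fenbuconazole. The coat protein gene SEC23A was 0.28 above DMSO at 10 µM imazalil (adjusted p = 0.643).

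The 5 lysyl oxidase genes, which cross-link collagen, were all measured and 0 were above background, LOXL3 and LOXL2 included, and limma called 0 at 10 µM, with 1, 0 and 0 at an unadjusted p under 0.05. Among 12 genes of collagen degradation and its inhibitors, 6 were above background and 0 were called at 10 µM, with 1, 1 and 2 at an unadjusted p under 0.05. The log2 fold changes were -0.05 for TIMP1 and 0.09 for TIMP2, both inhibitors of matrix metalloproteinases, at 10 µM imazalil. Of 9 collagen receptors, 8 were measured and 5 were above background, and neither the integrin chain ITGB1 nor the collagen-binding kinase DDR1 nor any other was called at 10 µM, with 0, 1 and 0 at an unadjusted p under 0.05. Among 20 other basement membrane and matrix genes, 18 were measured, 16 were above background and 0 were called at 10 µM, FN1 and VTN among them, with 2, 3 and 4 at an unadjusted p under 0.05.

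Of 12 genes of the TGF-β signal, a known inducer of collagen genes, 11 were measured and all 11 were above background. At 10 µM imazalil 1 of them was called, CCN2, a matrix-associated target of that signal, which fell by 0.33 ± 0.08 (SE, adjusted p = 0.0394). It read 10.1, 9.24 and 9.31 in P1, P2 and P3 at 10 µM against 10.6, 9.50 and 9.63 in DMSO, lower in each P code although the groups overlapped. The list median at 10 µM was 0.05, -0.13 and 0.00 for the 3 chemicals, and the receptor gene TGFBR2 had a log2 fold change of -0.19 with imazalil that did not pass the test (adjusted p = 0.388).

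The array is a bulk measurement, so fewer cells of a type and less RNA per cell cannot be told apart. All 8 hepatocyte markers were above background, with ALB at 13.2 in DMSO. Of 9 mesenchyme markers 5 were above background, led by DCN and ACTA2, while PDGFRA, DES, LRAT and THY1 were not. DCN, a small proteoglycan that binds collagen fibrils, read 8.26, 8.61 and 8.66 at 10 µM imazalil against 8.86, 8.97 and 9.18 in DMSO, with no overlap (-0.49 ± 0.12 (SE), adjusted p = 0.0586). At 10 µM fenbuconazole it fell by 0.41 ± 0.09 (SE, adjusted p = 0.0210), and with 2,4-D the value was -0.31 (adjusted p = 0.514). ACTA2, a contractile actin of stellate cells and myofibroblasts, was at 0.04 with imazalil. LUM, another proteoglycan of collagen fibrils, and PDGFRB, a stellate cell receptor, had log2 fold changes of 0.24 and 0.13 with fenbuconazole and 0.01 and -0.07 with imazalil, none of them called.

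The mean over the 9 mesenchyme markers was 4.56 to 4.67 in the 10 µM imazalil arrays and 4.70 to 4.82 in DMSO, 4.72 to 4.75 against 4.76 to 4.88 with fenbuconazole, and 4.74 to 4.76 against 4.80 to 4.94 with 2,4-D. This mean takes in the 4 markers at background. Its 10 µM values were lower than DMSO with all 3 chemicals, which share the same DMSO arrays, and the part of this in the COL3A1 value was not tested. The pattern was not particular to these markers. The mean over the hydroxylation and folding list was also lower with all 3 chemicals, at 7.45 to 7.49 against 7.50 to 7.57 with imazalil. Every other list overlapped DMSO or rose with at least 1 chemical. Of 7 endothelium markers 1 was above background (KDR), and of 5 immune markers measured 1 (CD14), with PECAM1 and PTPRC not above. Of 6 biliary markers 3 were above background, among them KRT19 and SPP1. SPP1, also a secreted matrix protein, rose by 0.86 ± 0.11 (SE) with imazalil and 0.53 ± 0.10 (SE) with fenbuconazole (adjusted p = 2.92e-05 and 0.00434). CD14 rose by 0.88 with imazalil (adjusted p = 4.02e-06). CYP3A4, which the list of hepatocyte markers holds and which many azoles induce, rose by 2.70 with imazalil and 2.23 with fenbuconazole (adjusted p = 1.32e-15 and 1.79e-13). SPP1, CD14 and CYP3A4 were each the only called gene of their list at 10 µM. The medians of the biliary, immune and hepatocyte lists were 0.18, -0.08 and -0.04 with imazalil and 0.10, 0.16 and -0.04 with fenbuconazole.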

How the data were processed

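RNA of HepaRG cultures was hybridised to the Affymetrix HT HG-U133+ PM array. The values deposited by the authors are log2 expression after RMA. RMA was run once per chemical and each run took in the same 3 DMSO arrays, which makes 90 columns of 84 arrays. Partek and RMA are the tools in the submitters' processing notes (versions not given in the sources used here). Array medians lay between 2.81 and 2.97, and 0 columns belonged to other samples. An array has no read depth. Precision is limited by the number of arrays and, for probe sets near background, by their low signal.

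Each set of 30 arrays was fitted in limma 3.58.1 (R 4.3.3) with group means and the P code as block. Contrasts with DMSO, a moderated F, a linear trend on log10 concentration over the 27 treated arrays, P code differences and 10 µM against 12 low-concentration arrays were adjusted by Benjamini-Hochberg over 54715 probe sets at 0.05. Chemicals were compared at 10 µM after subtraction of each set's DMSO mean. Gene symbols came from the platform annotation, and COL17A1 was not analysed here. As a check of pairing, each array's deviations from its group mean were correlated with those of the others. The mean r within a P code was 0.0979 in the fenbuconazole set, 0.0940 in the imazalil set and 0.117 in the 2,4-D set, and across P codes -0.0489, -0.0468 and -0.0582. Of 30 arrays per set, 29, 26 and 30 were closest to their own code. The study's supplement says that replicates were independent cell batches, which the P code was taken to mark. In the 2,4-D titles the replicate numbers do not follow the P codes, and the labels give 1 sample number to both the 0.001 and the 0.003 µM array of P2.

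The fit was tested on simulated data for the fenbuconazole contrast at 10 µM. The collagen genes and the 12 gene lists were chosen with earlier results of these data known. Genes were named by a rule: 11 major collagens, the 12 highest in DMSO, every gene called, the 3 smallest p at 10 µM and for the trend per chemical, the 5 smallest p for P codes per set, and from the lists those called at 10 µM or otherwise the brightest. Alternatives were fits without the block, with the title number as block, without each P code, on probe sets above background, adjusted over genes, with arrays centred, with a variance trend, on the mean of a gene's probe sets adjusted over genes, without the equal-number arrays, and other background thresholds. Python 3.11.15, pandas 2.3.3 and matplotlib 3.10.9 were used for tabulation and plots.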

Additional observations from a re-analysis of the deposited data

Results flagged for a closer look

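COL3A1 at 10 µM is given here because its change from DMSO differed between chemicals by a test of the difference itself. Fenbuconazole minus imazalil was 0.59 on the log2 scale and imazalil minus 2,4-D was -0.60 (limma, adjusted p = 0.00185 and 0.00134), with the imazalil arrays lower in both. The DMSO arrays are the same for all chemicals, and sample numbers run in blocks by chemical within each P code.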

How the results depend on the processing

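Without the replicate block limma still called COL3A1 at 10 µM imazalil (adjusted p = 0.00116), and over 9 alternatives its log2 fold change ran from -0.84 to -0.27 with adjusted p from 3.88e-06 to 0.0494, the weakest on the mean of its 5 probe sets with p adjusted over genes. Without the block the imazalil trend called 2 genes, COL8A1 and COL12A1, and the count for every other comparison run without the block did not change. Counts of collagen genes called moved as follows. Against the 12 low-concentration arrays, 10 µM gave 1 gene for fenbuconazole and 3 for imazalil. In that comparison, with further settings chosen after seeing the data, fenbuconazole gave 2 on probe sets above background, 2 with a variance trend and 4 on the mean of probe sets, imazalil gave 5 on probe sets above background and 5 adjusted over genes, 2,4-D gave 1 (COL5A1) on the mean of probe sets, and leaving out 1 P code gave 0 to 1 for fenbuconazole and 1 to 2 for imazalil. On the mean of a gene's probe sets, which also adjusts p over genes, fenbuconazole gave 1 by the F, 3 by the trend (COL4A6, COL5A1 and COL7A1) and 2 between P codes, imazalil 3 between P codes and 2,4-D 1 between P codes. The imazalil F still gave 1 gene in that setting, but it was COL5A1 and no longer COL3A1. With a variance trend and robust prior, the F gave 2 for imazalil and 1 for 2,4-D, and P codes gave 1, 2 and 5 for fenbuconazole, imazalil and 2,4-D. On probe sets above background, the imazalil trend gave 5 and P codes gave 1, 2 and 5. Adjusted over genes, imazalil gave 5 by the trend and 3 between P codes. The imazalil trend gave 0 without the 10 µM arrays, and with the title number as block 2,4-D gave 0 between replicates. Leaving out 1 P code gave 0 to 1 by the imazalil F, 0 to 1 by the imazalil trend, 0 to 2 between P codes for imazalil and 0 to 3 for 2,4-D, and 0 to 1 for fenbuconazole minus imazalil and for imazalil minus 2,4-D. Where fewer arrays or features enter, the test itself differs; for the other settings the cause was not tested. The number of genes above background ran from 13 to 19 over 8 other definitions. With 3 arrays a group and probe sets near background, small changes were not detectable.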
